A study of Mus musculus with 46 samples.

Results

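The ZIC genes encode zinc finger transcription factors. Counts of 4 of them, Zic1, Zic2, Zic4 and Zic5, were examined in 46 mouse synovial sarcomas, with 1 RNA sequencing library per tumor. The 4 genes were taken by name out of 56980 genes in one count table and 56941 in the other, and the family was selected on the level of Zic1, which was lower in tumors with disrupted Arid1a than in controls. That contrast is therefore described below without a test. All tumors were initiated by injecting TATCre, a cell-permeable Cre recombinase, into the hindlimb at 8 days of life, which switched on a human fusion gene in Rosa26, SS18::SSX2 in hSS2 mice and SS18::SSX1 in hSS1 mice. The floxed groups also carried conditional alleles of 1 BAF subunit gene, and the same Cre injection was used to disrupt that gene. PBRM1 belongs to the PBAF form of the BAF chromatin remodeler, and ARID1A and ARID1B belong to the canonical form, CBAF. The hSS2 tumors comprised 13 control, 8 Pbrm1-fl, 8 Arid1a-fl and 8 Arid1b-fl tumors, and the hSS1 tumors comprised 5 control and 4 Pbrm1-fl tumors. Control tumors expressed the fusion and carried no floxed BAF gene. Injected Cre is not restricted to 1 cell type, and RNA came from whole frozen tumor pieces, so that a lower share of tumor cells and less RNA per tumor cell cannot be told apart. Age at collection was not given in the labels.

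ZIC proteins bind DNA through C2H2 zinc fingers that resemble those of the GLI proteins, and they can act together with GLI factors. In embryos the genes mark the dorsal neural tube, the roof of the hindbrain and the somites, where Zic1 has been linked to activation of the muscle regulator Myf5. In humans, loss of the region that holds ZIC1 and ZIC4 is associated with Dandy-Walker malformation of the cerebellum, and ZIC2 mutations cause holoprosencephaly. ZIC5 takes part in formation of neural crest. The genes lie in head-to-head pairs, Zic1 with Zic4 and Zic2 with Zic5, an arrangement inherited from an ancestral pair.

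Zic1 occupied chromosome 9 from 91358058 to 91365810 on the minus strand of GRCm38 in GENCODE M21, and Zic4 occupied 91362413 to 91389348 on the plus strand. The annotated spans overlapped by 3398 bp, but the exons by only 60 bp, which was 1.05% of the exon length of Zic1 and 0.581% of that of Zic4. Libraries were stranded, but the strand setting of the counting was not stated, and reads in this overlap could be counted for either gene. Zic2 occupied chromosome 14 from 122475435 to 122479852 on the plus strand, and Zic5 occupied 122456795 to 122465677 on the minus strand, with no overlap and 9758 bp between their annotated starts. RefSeq promoters, from 250 bases before to 50 bases after the start on GRCm38.p6, were matched for 3 of the 4 genes and are shown because the paired genes varied together (below). In RefSeq the starts of Zic1 and Zic4 lay 3204 bp apart. Each sequence reads 5′ to 3′ on the strand of its gene, with CpG dinucleotides in capitals.
Zic1, chr9:91365719-91366018, minus strand: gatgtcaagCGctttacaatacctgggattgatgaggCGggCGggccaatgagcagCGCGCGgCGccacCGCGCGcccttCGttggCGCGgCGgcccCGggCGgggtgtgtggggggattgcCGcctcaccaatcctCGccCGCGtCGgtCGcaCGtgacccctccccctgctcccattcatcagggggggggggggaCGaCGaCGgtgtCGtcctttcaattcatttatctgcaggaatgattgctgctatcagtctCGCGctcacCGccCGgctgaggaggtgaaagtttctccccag
Zic4, chr9:91368722-91369021, plus strand: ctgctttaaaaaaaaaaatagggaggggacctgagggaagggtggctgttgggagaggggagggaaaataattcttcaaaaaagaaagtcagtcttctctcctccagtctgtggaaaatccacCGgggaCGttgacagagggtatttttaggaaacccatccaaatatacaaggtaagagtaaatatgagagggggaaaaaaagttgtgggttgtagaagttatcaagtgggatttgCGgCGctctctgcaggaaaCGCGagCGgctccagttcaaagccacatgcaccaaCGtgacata
Zic5, chr14:122465609-122465908, minus strand: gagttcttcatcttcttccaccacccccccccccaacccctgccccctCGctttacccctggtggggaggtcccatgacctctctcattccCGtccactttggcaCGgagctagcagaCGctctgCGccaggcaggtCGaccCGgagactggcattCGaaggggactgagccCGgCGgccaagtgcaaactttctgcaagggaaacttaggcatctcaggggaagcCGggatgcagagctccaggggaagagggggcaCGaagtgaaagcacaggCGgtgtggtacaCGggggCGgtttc
The Zic1 promoter held 31 CpG dinucleotides at a GC content of 65.3%, and 10.6% of 32851 RefSeq promoters held at least as many. The Zic5 promoter held 15 CpG at 62.7% GC. The Zic4 promoter held 8 CpG, close to the median promoter with 7 CpG. Its GC content was 46%, below the median of 52.7%, and 74.9% of promoters had at least this GC content. A CCAAT box, searched as CCAAT on both strands, was present in the Zic1 promoter alone of the 3 and in 37.4% of all promoters. The TATA-box letters TATAAA, present in 13.6% of all promoters, and the ZIC-type motif CAGCAGG, present in 10.5%, were absent from these 3 windows on both strands.

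Zic2 and Zic5 were expressed in every tumor, whereas Zic1 and Zic4 ranged from silence to abundant transcript. Levels are given in CPM, which are counts scaled by library size. Library sizes were summed over the tested genes and scaled by edgeR's TMM method. Over all 46 tumors Zic2 ranged from 76.5 to 597 CPM, with a median of 297 CPM. Zic5 ranged from 25.2 to 210 CPM with a median of 97.9 CPM. Both were at 10 CPM or more in 46 tumors. Zic1 ranged from 0 to 188 CPM with a median of 4.82 CPM, and Zic4 from 0 to 115 CPM with a median of 1.16 CPM. Zic1 was under 1 CPM in 8 tumors and at 10 CPM or more in 19, and Zic4 was under 1 CPM in 19 tumors and at 10 CPM or more in 14. The 5 values at 0 counts allow levels of up to 0.171 to 0.275 CPM, taking 3 counts as the limit of counting error. These limits were instead scaled by the total of all reads assigned to genes. Libraries held 10137668 to 21294657 assigned reads. Per kilobase of exon, the median levels were 103 CPM for Zic2, 20.03 CPM for Zic5, 0.85 CPM for Zic1 and 0.11 CPM for Zic4. On this length-scaled measure Zic2 exceeded Zic5 in 46 of 46 tumors, Zic5 exceeded Zic1 in 43, and Zic1 exceeded Zic4 in 44. Across the 6 groups the median of Zic1 descended from 16.4 CPM in hSS2 Arid1b-fl through 14.7, 10.9, 3.79 and 2.29 CPM in hSS2 Pbrm1-fl, hSS2 control, hSS1 control and hSS2 Arid1a-fl to 2.03 CPM in hSS1 Pbrm1-fl tumors, and the ranges of each neighboring pair in this order overlapped. The medians of Zic2 lay between 162 CPM in hSS2 Pbrm1-fl and 350 CPM in hSS1 Pbrm1-fl tumors, again with overlapping ranges.

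**Figure D1:**
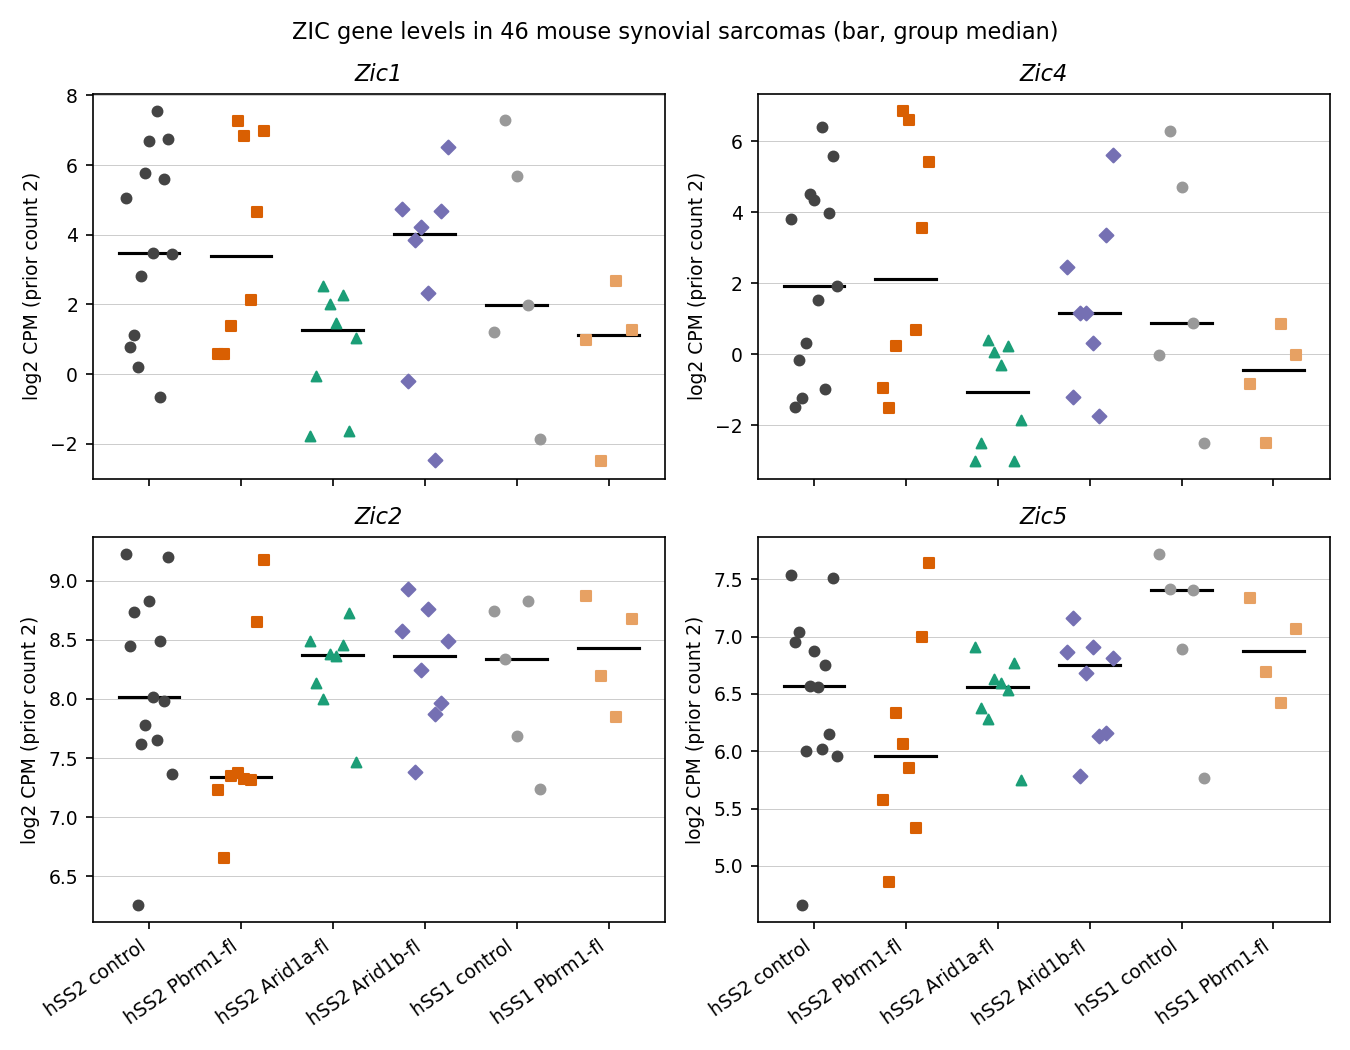
Levels of Zic1, Zic4, Zic2 and Zic5 in 46 tumors, as log2 CPM with a prior count of 2 on the vertical axes, which differ between panels. Each point is 1 tumor and bars are group medians; within the hSS2 Pbrm1-fl group Zic1 spread from 1.36 to 155 CPM and Zic4 from 0.228 to 115 CPM, whereas Zic2 stayed between 76.5 and 597 CPM in every group.

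The spread of Zic1 and Zic4 was present within genotypes. The pooled SD within the hSS2 groups was 2.66 on the log2 CPM scale for Zic1 and 2.63 for Zic4, against a median of 0.46 over 20083 tested genes, and 0.747% and 0.782% of tested genes had a larger SD. Zic2 had an SD of 0.69 and Zic5 of 0.68, and 32.4% and 33.1% of tested genes had a larger one. In the hSS1 tumors the SD was 3.12 for Zic1, 2.86 for Zic4, 0.60 for Zic2 and 0.64 for Zic5.

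Among the 13 hSS2 control tumors Zic1 ranged from 0.512 to 188 CPM with a median of 10.9 CPM, and 8 were at 10 CPM or more. Zic4 in the same tumors ranged from 0.234 to 83.7 CPM with a median of 3.69 CPM. The tumor with the most Zic1 was also the one with the most Zic4, and it was the library labelled hSS2 control replicate 9. This library held 238 CPM of Arid1a, where Arid1a-fl tumors spanned 229 to 276 CPM and the control median was 505 CPM. Its label is thus in doubt, so the main values that rest on it are also given without it. Targeted genes were otherwise lower in their floxed groups, at medians of 97.1 against 253 CPM for Pbrm1 in hSS2, 247 against 505 CPM for Arid1a, 186 against 323 CPM for Arid1b and 218 against 338 CPM for Pbrm1 in hSS1. Ranges overlapped for Arid1b, and for Arid1a through the library labelled replicate 9.

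Genes of a pair rose and fell together from tumor to tumor, in each genotype. After centring log2 CPM on the group mean, Zic1 and Zic4 correlated over 37 hSS2 tumors with Pearson's r = 0.959 (95% interval 0.918 to 0.979) and Spearman's rho = 0.979. Zic2 and Zic5 correlated with r = 0.961 (0.923 to 0.980) and rho = 0.950. For both pairs and both coefficients the permutation p within groups was 1e-05, the smallest that 100000 permutations can give, with 3e-05 after Benjamini-Hochberg adjustment over the 6 pairs of genes. Without the 2 tumors farthest from the median of the first gene, r was 0.971 for Zic1 with Zic4 and 0.938 for Zic2 with Zic5. Sample titles gave each tumor a number, read here as a mouse number although no label says so. The numbers fell in 3 ranges that followed the floxed gene, and centring on group and range gave r = 0.958 and 0.962. Without control replicate 9 r was 0.956 and 0.960. In single hSS2 groups r was 0.918 to 0.992 for Zic1 with Zic4 and 0.945 to 0.983 for Zic2 with Zic5. The 9 hSS1 tumors, which form a separate table, gave r = 0.984 and rho = 0.983 for Zic1 with Zic4 (exact permutation p = 0.000347 for both, adjusted 0.00208, n = 9). For Zic2 with Zic5 they gave r = 0.930 (exact permutation p = 0.00139, adjusted 0.00417) and rho = 0.85 (exact p = 0.00937, adjusted 0.0281). Without the 2 farthest tumors r was 0.962 and 0.885.

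Between the loci the correlations over all hSS2 tumors were weak and did not pass the test. The 4 pairs of genes across chromosomes 9 and 14 gave r = 0.241 to 0.314 over 37 hSS2 tumors, with adjusted permutation p of 0.175 to 0.191, and rho = 0.162 to 0.195, with adjusted p = 0.380. The interval for Zic1 with Zic2 was -0.11 to 0.54, so a moderate correlation was not outside it. In single hSS2 groups rho for this pair was 0.762 in Pbrm1-fl (exact permutation p = 0.0368, adjusted 0.098), 0.214 in control, 0.024 in Arid1b-fl and -0.429 in Arid1a-fl tumors. No pair between the loci passed in a single hSS2 group after adjustment. Of 13 control tumors, replicate 10 had the least Zic1, 0.512 CPM, beside 360 CPM of Zic2, and replicate 7 had 102 CPM of Zic1 beside 455 CPM of Zic2.

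**Figure D2:**
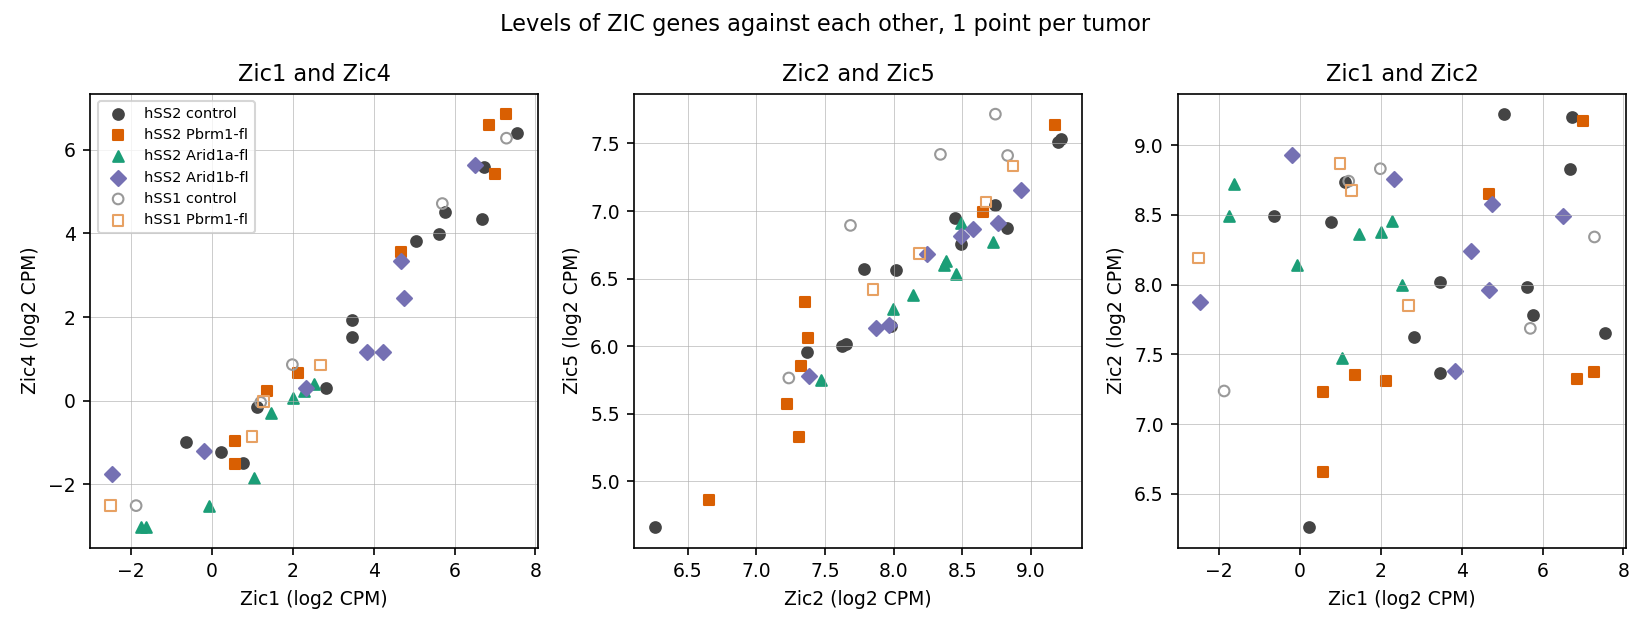
Log2 CPM (prior count 2) of Zic4 against Zic1, Zic5 against Zic2 and Zic2 against Zic1, with 1 point per tumor and symbols for the 6 genotype groups. Points follow a line within each locus (r = 0.959 and 0.961 within hSS2 groups) and scatter between the loci (r = 0.241).

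The proportion of the 2 genes of a pair varied less than their levels. Among 19 hSS2 tumors with 100 or more counts for the pair, the log2 ratio of Zic4 to Zic1 per length had a median of -2.39 and an SD of 0.75, and the ratio of Zic5 to Zic2 had a median of -2.46 and an SD of 0.20 over 37 tumors. None of 6 tested differences in these ratios between a floxed group and its controls passed a 2-sided exact permutation test. The smallest adjusted exact p was 0.333, for a log2 ratio of Zic5 to Zic2 lower by 0.39 in hSS1 Pbrm1-fl (-2.28 ± 0.07 SD, n = 4) than in hSS1 control tumors (-1.89 ± 0.30, n = 5). In hSS2 Pbrm1-fl tumors the ratio of Zic4 to Zic1 was higher by 0.34 (adjusted exact p = 0.435, n = 8 and 13). In Arid1a-fl tumors, described without a test and with Zic4 at 0 to 2 counts in 4 of 8, it was lower by 0.44 (-2.85 ± 0.54 against -2.40 ± 0.60), and the difference was -0.83 against controls numbered under 1000 and -0.97 with a prior count of 0.5.

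Pbrm1 disruption in hSS2 tumors left the ZIC genes without a called difference. Zic1 in the 8 Pbrm1-fl tumors ranged from 1.36 to 155 CPM with a median of 14.7 CPM. Of these, 4 tumors held 25.2 to 155 CPM and 4 held 1.36 to 4.22 CPM, so the group spanned nearly the range of the controls. Zic4 ranged from 0.228 to 115 CPM with a median of 6.52 CPM, and 2 tumors exceeded every control. None of the 4 genes passed edgeR's quasi-likelihood test at an adjusted p of 0.05, where 7.35% of 20083 genes did, and none had an unadjusted p under 0.05. DESeq2 called none of the 4 either, where it called 2164 of 20083 genes. The log2 fold change was 0.31 ± 0.95 (SE) for Zic1, 1.03 ± 1.01 for Zic4, -0.44 ± 0.30 for Zic2 and -0.33 ± 0.29 for Zic5, with adjusted p of 0.406 to 0.883. For Zic1 the 95% interval ran from -1.62 to 2.24, and for Zic2 from -1.06 to 0.18. Against the 4 controls of the same mouse number range, whose median Zic1 level was 1.81 CPM, the fold change was 2.52 ± 1.46 for Zic1 (adjusted p = 0.459) and 3.14 ± 1.64 for Zic4 (adjusted p = 0.392).

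Zic2 in the Pbrm1-fl tumors ranged from 101 to 577 CPM with a median of 162 CPM, and 6 of 8 were below the control median of 259 CPM. Zic5 ranged from 28.9 to 199 CPM with a median of 62.2 CPM, against 95.1 CPM in controls. The same 2 tumors, replicates 7 and 8, were the highest for both genes, and both groups overlapped over most of their range. Without replicate 8 the log2 fold change was -0.78 for Zic2 (unadjusted p = 0.0119, edgeR adjusted p = 0.115) and -0.67 for Zic5 (unadjusted p = 0.0233, adjusted p = 0.169).

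Arid1b disruption likewise gave no called difference. Zic1 in the 8 Arid1b-fl tumors ranged from 0.06 to 91.2 CPM with a median of 16.4 CPM, and Zic4 from 0.173 to 49.2 CPM with a median of 2.12 CPM. Of 8 tumors, 5 exceeded the control median of Zic1 and 3 that of Zic4. Zic2 ranged from 167 to 486 CPM and Zic5 from 54.95 to 143 CPM. No ZIC gene was called, where 0.0548% of genes were, and none had an unadjusted p under 0.05. DESeq2 called none of them either, where it called 15 of 20083 genes. Log2 fold changes were -0.93 ± 0.99 for Zic1 (95% interval -2.94 to 1.08), -0.89 ± 1.07 for Zic4, 0.03 ± 0.30 for Zic2 (-0.58 to 0.64) and -0.04 ± 0.29 for Zic5, with adjusted p of 0.928 to 0.997. Without Arid1b-fl replicate 8 the values were -1.78 for Zic1 and -2.47 for Zic4 (unadjusted p = 0.0425, edgeR adjusted p = 0.732), and without control replicate 9 they were -0.51 and -0.34.

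In the 8 Arid1a-fl tumors, the contrast that led to the choice of the family, Zic1 was 0.170, 0.200, 0.833, 1.94, 2.63, 3.91, 4.73 and 5.66 CPM in ascending order. All 8 lay below the control median of 10.9 CPM and 2 lay below every control, but 4 of 13 controls were at or below the highest Arid1a-fl tumor. Zic4 was at 0 counts in 2 of the 8 tumors, at 1 and 2 counts in 2 more, and at 0.688 to 1.19 CPM in the other 4. It was below the control median in 8 of 8 and below every control in 4, while 5 of 13 controls were at or below the highest Arid1a-fl tumor. The fitted log2 fold changes were -4.11 ± 1.18 (SE) for Zic1 and -4.99 ± 1.38 for Zic4, in a comparison in which 3.17% of genes were called. Without the library labelled control replicate 9 they were -3.67 ± 1.15 and -4.42 ± 1.32. All Arid1a-fl tumors were numbered under 1000. Against the 5 controls numbered under 1000, with a median Zic1 level of 48.6 CPM, the log2 fold changes were -4.81 and -5.88. Without replicate 9, 4 of these controls remained, with a median of 29.7 CPM, and the log2 fold changes were -4.08 and -5.08. Controls numbered 2000 or over had a median of 1.81 CPM of Zic1, below the Arid1a-fl median of 2.29 CPM. In the same comparison the median log2 fold change was -1.36 over 10 skeletal muscle markers and -2.99 over 4 tested of 6 adipocyte markers. It was -1.19 over 4 tested of 6 nerve sheath markers and -0.96 over 8 epithelial markers. For 8 macrophage, 6 endothelial and 6 proliferation markers it was -0.29, -0.03 and 0.92. Their part in the lower Zic1 and Zic4 levels was not tested, and correlations of both genes with these lists are given below.

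The other pair did not follow in the same tumors. Zic2 was 177 to 423 CPM in Arid1a-fl tumors, with a median of 331 CPM against 259 CPM in controls, and Zic5 was 53.7 to 120 CPM, with a median of 94.6 CPM against 95.1 CPM. Every value of both genes lay inside the control range. The fitted log2 fold changes were -0.02 ± 0.30 for Zic2 and -0.15 ± 0.29 for Zic5. The spread of both was narrow in this group, with SDs of 0.38 and 0.36 on the log2 scale against 0.82 and 0.77 in controls.

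In the hSS1 background, where controls and Pbrm1-fl tumors were few, Zic1 was 0.096, 2.13, 3.79, 51.7 and 156 CPM in the 5 controls and 0, 1.80, 2.25 and 6.22 CPM in the 4 Pbrm1-fl tumors. Zic4 was 0, 0.798, 1.64, 26.1 and 77.3 CPM in controls and 0, 0.380, 0.809 and 1.63 CPM in Pbrm1-fl tumors. Both genes were high in 2 controls and in no Pbrm1-fl tumor, and the remaining controls overlapped the floxed group. The log2 fold changes of -4.06 ± 1.83 for Zic1 (edgeR adjusted p = 0.297) and -4.90 ± 1.93 for Zic4 (adjusted p = 0.248) did not pass the test, and neither did Zic2 at 0.16 ± 0.35 (adjusted p = 0.851) or Zic5 at -0.26 ± 0.36 (adjusted p = 0.745). Of 17786 genes tested 0.00562% passed. Zic4 had an unadjusted p under 0.05 (0.0311). DESeq2 called none of the 4 genes, where it called 1184 of 17608 genes. The 95% intervals were wide, from -8.38 to 0.26 for Zic1 and from -9.45 to -0.35 for Zic4. Against the 3 hSS1 controls of the same mouse number range the fold changes were -2.85 (adjusted p = 0.560) and -3.71 (adjusted p = 0.477). Marker lists were also lower in hSS1 Pbrm1-fl tumors, with a median log2 fold change of -3.06 over 4 tested of 10 skeletal muscle markers, -1.29 over 7 tested of 8 epithelial markers, -0.91 over 6 proliferation markers, -0.54 over 8 macrophage markers and -0.35 over 6 endothelial markers. None of these markers was called by edgeR, and their part was not tested. Leaving out 1 tumor moved Zic1 to between -4.96 and -2.49, the latter without control replicate 2, the tumor with the most Zic1.

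The difference between the Pbrm1-fl effects in the hSS1 and hSS2 backgrounds was -4.37 ± 1.97 for Zic1 (edgeR adjusted p = 0.214) and -5.94 ± 2.25 for Zic4 (adjusted p = 0.133), and 0 of 4 ZIC genes were called, where 2.86% of 21725 genes were. Zic1 and Zic4 had unadjusted p-values of 0.0323 and 0.0115. With DESeq2, which called 1195 of 21699 genes, the adjusted p for Zic4 was 0.0319. Over 6 settings it ranged from 0.0319 to 0.264, so the call for this gene depended on the tool. Without hSS2 control replicate 9 the difference was -4.80 for Zic1 (edgeR adjusted p = 0.170) and -6.51 for Zic4 (adjusted p = 0.0986), and without hSS1 control replicate 2 it was -2.79 for Zic1 (adjusted p = 0.448). Zic2 and Zic5 differed by 0.59 ± 0.53 and 0.05 ± 0.51.

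**Figure D3:**
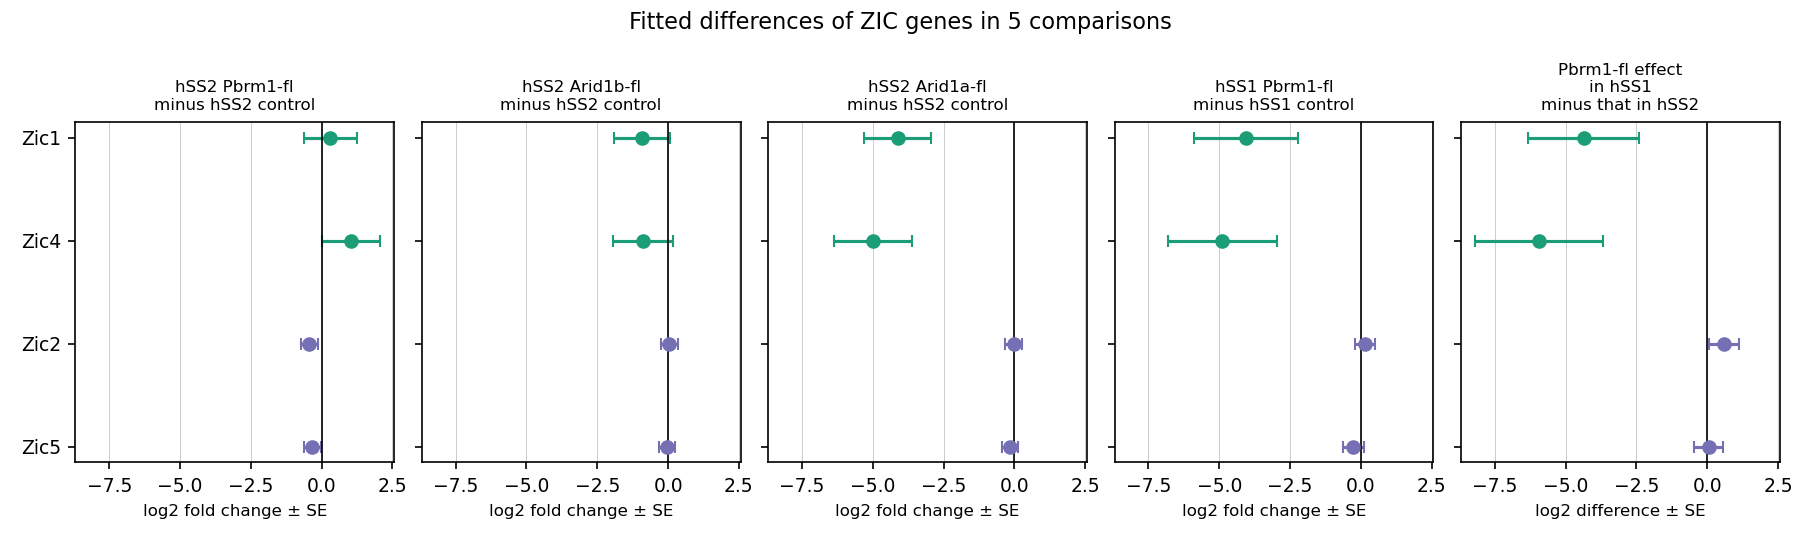
Fitted log2 fold changes of Zic1, Zic4, Zic2 and Zic5 (points) with standard errors (bars) in 4 comparisons of floxed with control tumors, and in the last panel the difference between 2 of them. Zic1 and Zic4 lie near -4 to -5 in the Arid1a-fl and hSS1 Pbrm1-fl panels, the first of which guided the choice of genes, while Zic2 and Zic5 lie between -0.44 and 0.59 in all 5.

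Genes whose levels were most like those of Zic1 were largely on another chromosome. Of 17287 genes ranked by Spearman's rho over the 37 group-centred hSS2 tumors, Zic4 came first for Zic1 (rho = 0.979), and the genes most alike included the kinase gene Braf (0.762), the zinc finger gene Zfp800 (0.754) and Cul1, which encodes a ubiquitin ligase scaffold (0.748). The last 3 all lay on chromosome 6. Their rho with Zic1 over the 9 hSS1 tumors was -0.433, 0 and 0.633. For Zic4 the list included Zic1, Braf and Cul1, and then Rorb on chromosome 19 (0.748). These rhos are descriptions of the top of a ranking.

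Chromosome 6 genes moved with Zic1 and Zic4, a pattern looked for after these genes were seen. Of the 100 genes most like Zic1, 55 lay on chromosome 6, which held 5.19% of ranked genes, and 65 of the 100 most like Zic4 did. Of 897 ranked genes of chromosome 6, 78.5% had a positive rho with Zic1, against 44.8% of genes on other chromosomes. The share was 74.5% for genes starting in the first 50 Mb, 85.9% from 50 to 100 Mb and 74.3% from 100 to 150 Mb, so it was not restricted to 1 part. The mean log2 CPM of chromosome 6 genes, taken relative to all other autosomes, correlated over 37 tumors with Zic1 at r = 0.772 and rho = 0.800 and with Zic4 at r = 0.788 and rho = 0.811, each with an adjusted permutation p of 0.0008 over 80 relations of 4 genes with 20 chromosomes. Without the 2 tumors farthest from the median r was 0.765 and 0.818, and centred on group and mouse number range it was 0.767 for both. Zic2 and Zic5 gave r = 0.301 and 0.268 (adjusted p = 0.462 and 0.516). Zic1 and chromosome 9, on which it lies, gave r = -0.24 (adjusted p = 0.516). The only other chromosome whose level passed with Zic1 on both coefficients was chromosome 7, with r = -0.50 (adjusted p = 0.0466). Zic4 likewise passed with chromosome 7 (r = -0.587). Relations to whole chromosomes were not particular to this pair, since Zic2 and Zic5 passed with chromosome 7 (r = -0.597 and -0.665) and chromosome 10 (r = -0.587 and -0.551).

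Within the 13 control tumors Zic1 and the chromosome 6 level gave r = 0.908, and within the Pbrm1-fl, Arid1b-fl and Arid1a-fl groups of 8 tumors r = 0.802, 0.613 and 0.390. Control replicate 9 had a chromosome 6 level of 0.33, and without it r with Zic1 was 0.887 in the other 12 controls and 0.753 over 36 hSS2 tumors. The hSS1 tumors gave r = 0.224 over 9. Relative to the median hSS2 tumor, the chromosome 6 level was -0.09 to 0.37 (median 0.10) on the log2 scale in controls and -0.13 to 0.06 (median -0.08) in Arid1a-fl tumors. In hSS1 it was 0 to 0.35 in controls and -0.31 to -0.10 in Pbrm1-fl tumors, without overlap. Whether the levels of other chromosomes also separate these hSS1 groups is not given here. The part of the chromosome 6 level in the lower Zic1 values of Arid1a-fl and hSS1 Pbrm1-fl tumors was not tested. Rosa26, the locus of the fusion allele, lies on chromosome 6 with Gt(ROSA)26Sor at 113067428 to 113077333, and its neighbors Thumpd3 and Setd5 had a rho of 0.548 and 0.487 with Zic1, whereas Gt(ROSA)26Sor itself had a rho of 0.04 with Zic1 and 0.04 with Zic4. DNA copy number and the human fusion transcript were not analysed here. Without reference to the other autosomes, r with chromosome 6 was 0.652 for Zic1 and 0.566 for Zic4. On this measure r with chromosome 7 was -0.142 for Zic1 and -0.289 for Zic4. For Zic2 and Zic5 it was -0.612 and -0.681 with chromosome 7 and -0.659 and -0.695 with chromosome 10. It was also -0.609 and -0.682 with chromosome 9, so these values did not single out chromosomes 7 and 10.

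**Figure D4:**
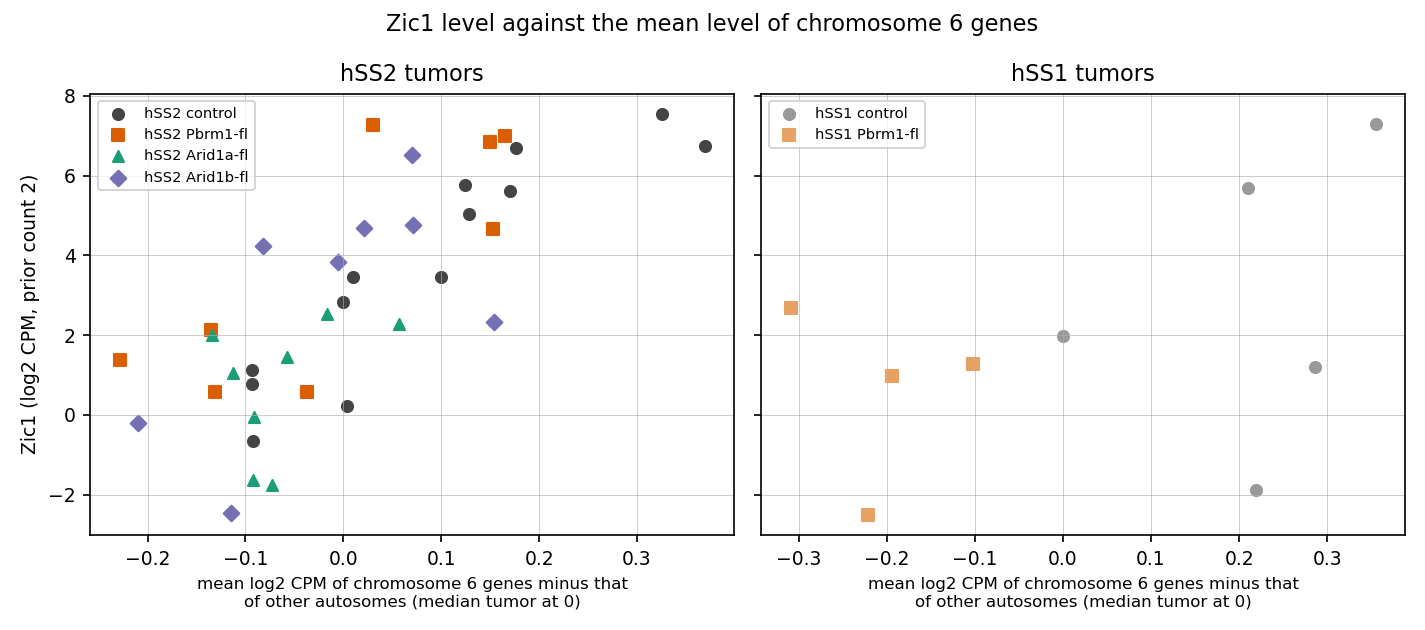
Zic1 level (log2 CPM, prior count 2) against the mean log2 CPM of chromosome 6 genes minus that of other autosomes, set to 0 at the median tumor of each background, with 1 point per tumor. In hSS2 tumors Zic1 rose with the chromosome 6 level (r = 0.772 within groups). In hSS1 the 4 Pbrm1-fl tumors lay below all 5 controls on the horizontal axis, and other chromosomes are not shown.

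Zic2 and Zic5 were lower in tumors with higher levels of macrophage, adipocyte, nerve sheath and skeletal muscle markers. Summed levels of 10 skeletal muscle markers ran from 5.33 to 43149 CPM over the hSS2 tumors, and those of 8 macrophage markers from 44 to 966 CPM. Summed adipocyte markers stayed at 90.1 CPM or less, and Ucp1 had at most 3 counts in every Pbrm1-fl tumor. Over 37 hSS2 tumors, centred on group, Zic2 correlated inversely with mean log2 levels of macrophage markers (r = -0.641, rho = -0.596), adipocyte markers (r = -0.635, rho = -0.634), nerve sheath markers (r = -0.622, rho = -0.557) and skeletal muscle markers (r = -0.441, rho = -0.426). Adjusted permutation p over 40 relations ranged from 0.0009 to 0.0373. Without the 2 tumors farthest from the median r was -0.58, -0.58, -0.52 and -0.40. Zic5 gave r = -0.639, -0.654, -0.654 and -0.491 with the same lists. Neither gene passed with endothelial, epithelial or proliferation markers, and r with endothelial markers was positive (0.250 for Zic2 and 0.236 for Zic5). Zic1 and Zic4 passed with none of these lists, with r between -0.27 and 0.17.

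**Figure D5:**
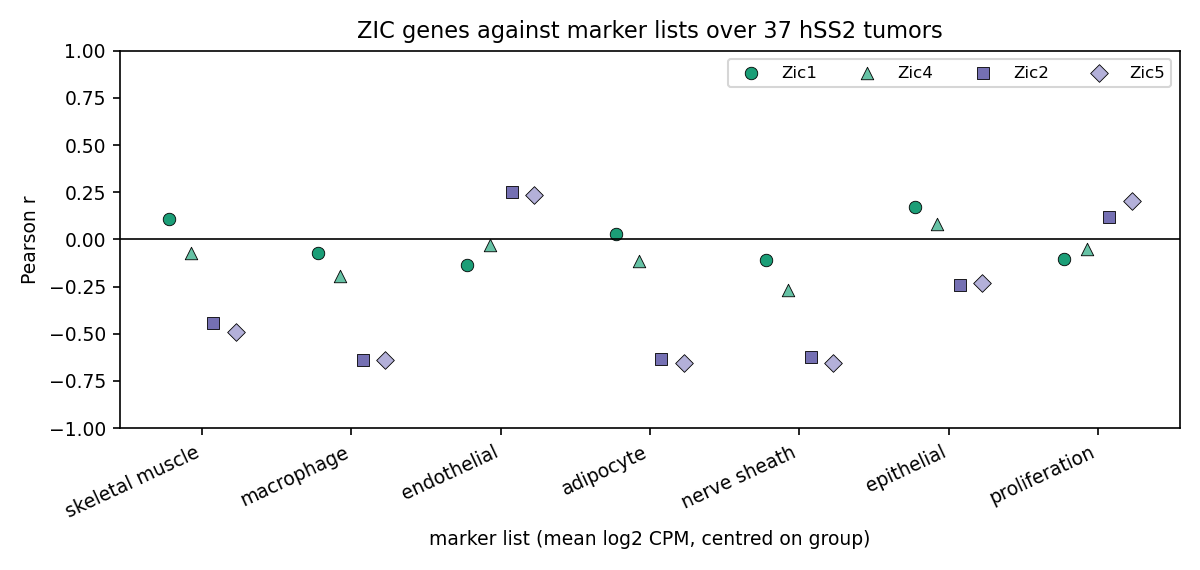
Pearson's r of Zic1, Zic4, Zic2 and Zic5 with the mean log2 CPM of 7 marker lists over 37 hSS2 tumors, all centred on the group mean. Zic2 and Zic5 lie between -0.65 and -0.44 for muscle, macrophage, adipocyte and nerve sheath markers, whereas Zic1 and Zic4 lie between -0.27 and 0.17 for all 7 lists.

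The coupling within pairs remained after these 4 lists were taken out as covariates, with r = 0.974 for Zic1 with Zic4 and 0.928 for Zic2 with Zic5 (adjusted permutation p = 3e-05 for both). Of the nerve sheath markers, Pmp2 had at most 3 counts in every library, and so did Sox10 in the Arid1a-fl group. The summed nerve sheath list ran from 8.13 to 71.0 CPM over the hSS2 tumors. Summed adipocyte markers were lower, with hSS2 group medians of 1.38 to 6.01 CPM. Penk, the proenkephalin gene, was listed because it was shown beside Zic1 in tissue sections of other mouse synovial sarcomas, as were Epcam and Nnat. It correlated inversely with Zic2 (r = -0.583, rho = -0.562, adjusted p = 0.00107 and 0.00189) and not detectably with Zic1 (r = -0.10, adjusted p = 0.712). Epcam and Nnat passed with no ZIC gene, and 0 of the 3 were called in the 4 tested comparisons.

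The genes most like Zic2 were Zic5 (rho = 0.950), Dab1 of the reelin pathway (0.782), the polarity gene Patj (0.776), Spata13 on chromosome 14 (0.770) and Lancl1 (0.764). For Zic5 they were Zic2, Ahcy (0.799), Pdxp (0.787), Espn (0.785) and Nacc1 (0.774). Over the 9 hSS1 tumors Spata13 and Zic5 each had a rho of 0.85 with Zic2, against 0.07 to 0.40 for the other 3 genes listed with Zic2.

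Genes next to Zic1 and Zic4 were expressed at low levels. Within 200 kb of this pair 9 further genes were annotated, and 0 had counts high enough to be tested within either background. In the fit over both backgrounds 6 of the 9 passed the filter and 0 were called, and the highest level in an hSS2 tumor was 4.04 CPM, of Gm29478. Within 200 kb of Zic2 and Zic5, 4 of 8 were tested. The transcript 2610035F20Rik, between the starts of Zic5 and Zic2, had a rho of 0.729 with Zic2 and 0.738 with Zic5, and Gm10837, downstream of Zic2, had 0.734 and 0.741. The other 2 were different gene identifiers that share the symbol Gm5089, with a rho of 0.578 and 0.482 with Zic2. None of the 4 was called in the 4 tested comparisons. For 2610035F20Rik the log2 fold change was -0.65 ± 0.34 in hSS2 Pbrm1-fl tumors (adjusted p = 0.246).

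Among relatives and partners of the ZIC genes, calls in the tested comparisons came only in hSS2 Pbrm1-fl tumors, mostly of dorsal regulators. All 6 GLI and GLIS genes, the closest relatives by zinc finger sequence, were tested and 0 were called in the 4 tested comparisons with all controls. Of 18 regulators of the dorsal neural tube and neural crest, 15 were tested in hSS2, and 3 rose and 0 fell in Pbrm1-fl tumors, where 3.4% of all tested genes were called higher and 3.95% lower, with a median log2 fold change of 0.64 against -0.0042 over all genes. The 3 were the homeobox genes Msx1 (1.88 ± 0.33, edgeR adjusted p = 0.00049) and Msx2 (0.85 ± 0.25, adjusted p = 0.0328), and the signaling ligand gene Bmp4 (1.20 ± 0.35, adjusted p = 0.0287). Against controls of the same mouse number range the adjusted p was 0.0451 for Msx1, 0.0871 for Msx2 and 0.0128 for Bmp4. With these controls edgeR also called Pax3, a neural crest regulator (1.28, adjusted p = 0.0091, against 0.64 and 0.0558 with all controls), and Glis1 of the first list (1.76, adjusted p = 0.0226, against 0.17 and 0.824). None of this list was called in the Arid1b-fl comparison, in hSS1 or for the difference between backgrounds, where Msx1 had a log2 difference of -2.02 ± 0.59 (adjusted p = 0.0501).

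Of 8 genes listed as targets or partners of ZIC proteins, 6 were tested in hSS2. Rnf180, a ubiquitin ligase gene, fell in Pbrm1-fl tumors (-1.15 ± 0.37, edgeR adjusted p = 0.0497), and the others, among them Apoe at -0.37 ± 0.26 and Ephb1 at -0.23 ± 0.28, were not called. Myf5 had too few counts to be tested within either background. In the Arid1a-fl comparison, described without a test, the median log2 fold change was 0.02 for the GLI and GLIS genes, -0.08 for the dorsal regulators and 0.12 for the targets and partners, against -0.04 over all genes.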

How the data were processed

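RNA was sequenced from 46 whole tumors, with groups taken from the sample titles. The values were raw read counts per Ensembl gene as the authors deposited them, in 1 table for hSS2 (37 libraries) and 1 for hSS1 (9 libraries). Libraries kept strand and were depleted of ribosomal RNA. Per the labels, STAR 2.7.11 aligned the reads to mm10 and featureCounts 1.6.3 counted them. Annotation release, strand setting and handling of multi-mapping reads are not given in the sources used here. Labels do not say whether any 2 tumors came from 1 mouse, or what the number in each title stands for. These numbers were unique and each tumor was treated as independent, so p-values reflect the spread between tumors.

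Counts were fitted in R 4.3.3 with edgeR 4.0.16 (filterByExpr, TMM scaling, robust quasi-likelihood test), with 1 fit over the 4 hSS2 groups, 1 over hSS1 and 1 over all groups for the interaction, and adjusted by Benjamini-Hochberg over all genes tested at a threshold of 0.05. CPM and log2 CPM used library sizes summed over the tested genes and scaled by TMM, and log2 CPM also used a prior count of 2. Intervals of fold changes used the residual degrees of freedom. Alternatives were RLE scaling, no filter on low counts, DESeq2 1.42.0, a prior count of 0.5, controls of the same mouse number range, and leaving out each tumor or the library labelled control replicate 9. Marker and chromosome correlations and the fits with marker covariates were added after values were seen. The scripts were tested on simulated data. Gene positions came from GENCODE M21 and promoters from RefSeq (GRCm38.p6), and 3 of 4 genes matched. The remaining family gene was not analysed here.

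The ZIC genes and gene lists were chosen with earlier results of these data known. Named genes were the 4 ZIC genes, tested genes within 200 kb, the 5 genes most alike to each with a mean of 1 CPM or more, and list genes past the threshold. Of these alike genes, 1 is not reported here. Braf and others on chromosome 6 led to the chromosome comparison, which was chosen after their values were seen, as were the named neighbors of Rosa26.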

Additional observations from a re-analysis of the deposited data

How the results depend on the processing

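No paired analysis was possible because the labels give no replicate numbers shared between groups, and the number in each title occurs once. Of 707 recomputed values, 666 kept their direction and their side of the threshold, 40 changed sign and 1 passed the threshold newly: Zic4 in the difference between backgrounds, at -5.94 with DESeq2. None of the sign changes touched a called value, and the cause was not tested. With controls of the same mouse number range, Zic5 was 0.0799 in hSS1 Pbrm1-fl and 0.0941 in Arid1b-fl tumors, and the log2 ratio of Zic4 to Zic1 in Arid1b-fl tumors was 0.45. That ratio was 0.0537 with a prior count of 0.5. Leaving out control replicate 9, whose label is in doubt, made it 0.0035, Zic2 in Arid1b-fl tumors -0.0357, and Zic1 and Zic4 in hSS2 Pbrm1-fl tumors 0.75 and 1.61. In 3 hSS1 fits without a control, Zic4 failed the filter on low counts and had no value. Counts of called genes moved more: DESeq2 called 1184 genes in hSS1, where edgeR called 1, 1696 against 637 for Arid1a-fl and 1195 against 622 for the difference between backgrounds. Without the filter edgeR called 243 for Arid1a-fl, 27 against 11 for Arid1b-fl and 402 for the difference. With controls of the same range it called 477 against 1476 for hSS2 Pbrm1-fl, 1405 for Arid1a-fl, 0 for Arid1b-fl, 0 for hSS1 and 9 for the difference. Leaving out single tumors gave -0.14 to 0.41 for Zic5 in the difference between backgrounds, -0.0158 to 0.35 for Zic2 in hSS1 Pbrm1-fl, -0.0941 to 0.14 for Zic2 and -0.16 to 0.0602 for Zic5 in Arid1b-fl, -0.14 to 0.75 for Zic1 in hSS2 Pbrm1-fl, -0.0111 to 0.13 for the ratio of Zic5 to Zic2 in hSS2 Pbrm1-fl, and -0.35 to 0.18 for the ratio of Zic4 to Zic1 in Arid1b-fl tumors. Low counts limited Zic1 and Zic4: 5 values were 0, and the spread within groups left wide intervals for both.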
